A study of Drosophila melanogaster with 2 samples.

Results

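The vacuolar ATPase subunit genes of Drosophila melanogaster were taken as the protein-coding genes whose symbol begins with Vha, which gave 33 of the 13945 protein-coding genes annotated on X, on the arms of chromosomes 2 and 3, and on 4. They were examined for DNA recovered with CG2129, a zinc finger protein, in whole embryos aged 0 to 4 h. Per the labels, the embryos came from a transgenic fly strain in which an insertion targets CG2129 and gives a fusion with the green fluorescent protein variant eGFP. Chromatin was sonicated to 200 to 800 bp, precipitated with an antibody against GFP and sequenced (ChIP-seq). There are 2 biological replicates of this 1 group, so no condition is compared with another. The sources used here do not say whether untagged CG2129 was also made in these flies, or which promoter drove the fusion. A control experiment named in the labels was not analysed here, and how much DNA comes down without CG2129 was not assessed. In whole embryos, a weak peak in all cells and a strong peak in few cells cannot be told apart.

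The vacuolar ATPase is a rotary proton pump that acidifies lysosomes, endosomes and secretory vesicles and, in insects, also energises the plasma membrane of epithelia such as the Malpighian tubules and the midgut. Its V1 sector, which faces the cytoplasm, hydrolyses ATP, and its V0 sector carries protons through the membrane. The roles given below for single subunits are known mainly from yeast, mammals and other insects. Many fly subunits are encoded by several genes, of which 1 or more are used in most tissues and the others mainly in the testis or other restricted places. From that background, and not from these files, 17 members were treated as broadly used and 16 as tissue-restricted. The use of each gene was not measured here, and some could be placed otherwise.

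The deposited files are peak lists. A member was called bound when a summit in the list made from the pooled replicates, and passed by the authors at an irreproducible discovery rate (IDR) of 0.01, lay within 500 bp of one of its transcription start sites (TSSs). The IDR is the share of peaks expected not to recur between the rankings compared. The longer ranked lists, which also hold peaks that missed that threshold, were used to place the other members. Signal is the value that the authors' caller wrote for each peak, on a scale that the files leave unnamed. Signals of the main members are therefore given with their percentile, the percent of protein-coding genes with a promoter peak in the same list whose signal was lower.

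CG2129-eGFP was found at 5 of the 33 vacuolar ATPase promoters, and these were Vha26, VhaM9.7-a, Vha16-1, Vha16-5 and Vha13. That is 15.2% of the members, beside 17.3% of all protein-coding genes (2418 of 13945), so the share of members bound was near that of genes in general. Broadly used members held 4 of the 5, which is 23.5% of 17, and tissue-restricted members held 1 of 16, or 6.25%. The median pooled signal over all bound protein-coding genes was 91.1, and all 5 bound members lay below it, at 34.6 to 79.6. In the pooled ranked list 22 members had a promoter summit, or 66.7%, beside 60.9% of all genes. By use, these were 16 of 17 broadly used members (94.1%) and 6 of 16 tissue-restricted members (37.5%). Paralogues are not replicates, so no test was made between the classes.

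**Figure D1:**
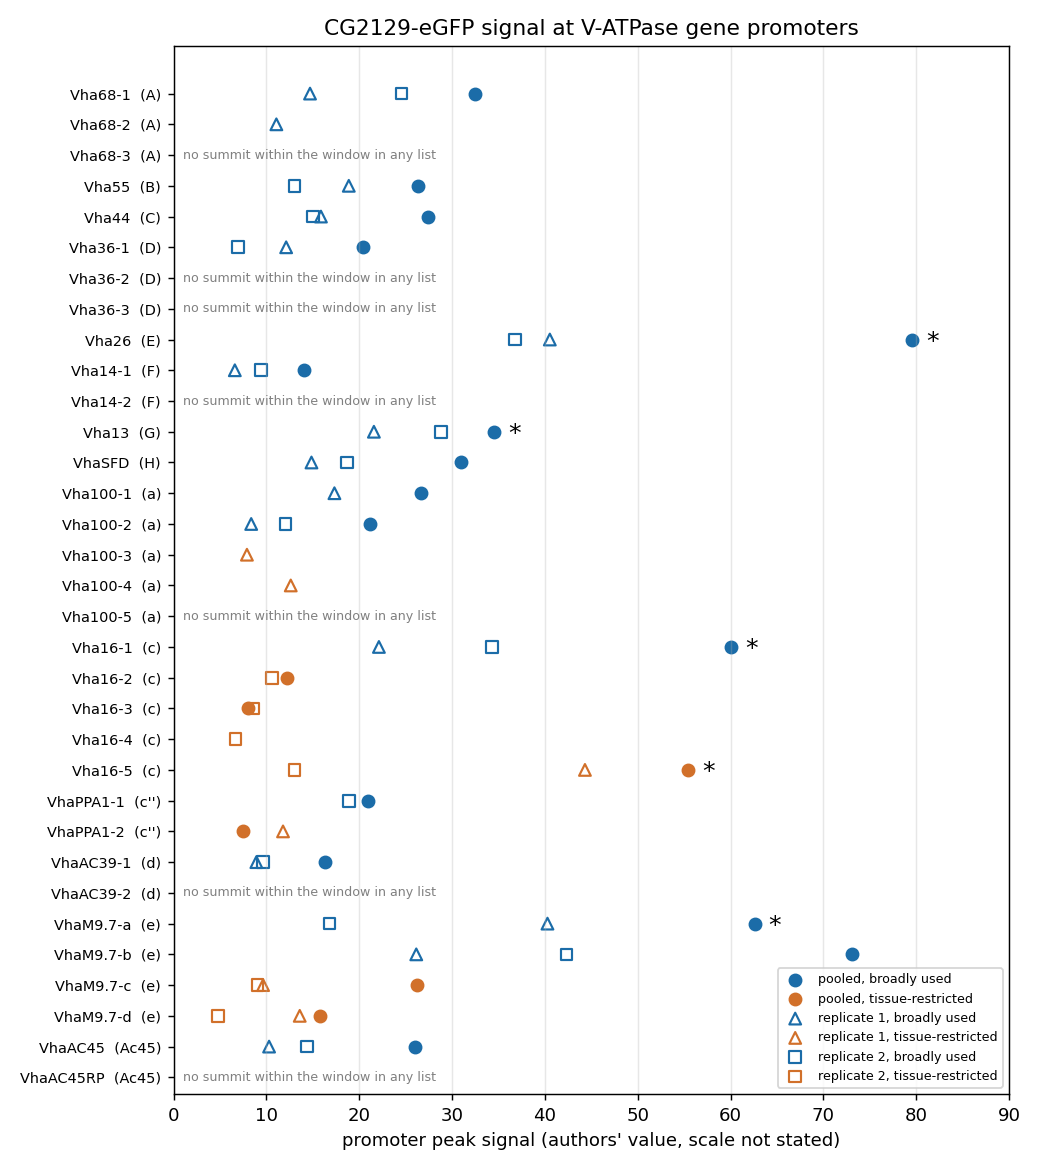
Promoter peak signal (the authors' value) of each of the 33 members, with the subunit letter in brackets, in the pooled ranked list (filled circles), replicate 1 (triangles) and replicate 2 (squares), blue for broadly used and orange for tissue-restricted genes. Stars mark the 5 members in the pooled thresholded list, and the 7 members without a summit within 500 bp in any list are all tissue-restricted.

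Vha26 carried the strongest peak among the members. It encodes the E subunit, part of the peripheral stalks that hold the V1 sector to the membrane, and lies on the plus strand of chr3R:5591763-5595356 (dm6). Its signal was 79.6 in the pooled list, 40.5 in replicate 1 and 36.8 in replicate 2, with percentiles of 82.6, 79.0 and 83.7. The replicates gave close values, and Vha26 was the 1 member present in the thresholded lists of both replicates, beside 10.7% of all genes. The summit lay 149 bp upstream of the Vha26 TSS and 155 bp from the TSS of noi, a splicing factor gene on the opposite strand, so the peak cannot be given to either gene.

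VhaM9.7-b, 1 of 4 genes for the small membrane subunit e, came next by signal and yet missed the pooled threshold. It lies on the plus strand of chr3L:21539862-21541215. Its signal was 73.1 in the pooled list, 26.1 in replicate 1 and 42.3 in replicate 2, with percentiles of 81.1, 69.4 and 86.5. Replicate 2 ranked it well above replicate 1. The replicate 2 summit lay 161 bp from the pooled one. On the −log10 IDR scale the threshold is 2, and every pooled thresholded peak lay above it. Not every peak above it was kept, since 2117 pooled ranked peaks reached 2 and the thresholded list holds 2067. For VhaM9.7-b the value was 0.165 in the pooled ranked list but 2.63 in a second pooled ranked list that the authors deposited. It was 0.074 in replicate 1 and 3.60 in replicate 2. The peak was absent from the pooled thresholded list and present in the authors' conservative list and in that of replicate 2. Such a miss was uncommon at this signal, since 1636 of the 1684 genes with a pooled promoter signal of at least 70 had a thresholded peak.

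Its paralogue VhaM9.7-a, on the plus strand of chr3L:4262705-4263464, was bound in the pooled list. The signal was 62.6 pooled, 40.3 in replicate 1 and 16.8 in replicate 2, with percentiles of 78.2, 78.9 and 63.9. By these values the 2 broadly used e genes leaned to different replicates, VhaM9.7-a to replicate 1 and VhaM9.7-b to replicate 2. The replicate 2 summit of VhaM9.7-b lay farther upstream, toward the neighbouring gene COX8. Its value can therefore belong to another position or to that gene. The summit of VhaM9.7-a lay 49 bp upstream of its TSS and 186 bp from that of CG11586, and the summit of VhaM9.7-b 161 bp upstream and 254 bp from the TSS of COX8, a cytochrome c oxidase subunit gene. The tissue-restricted e genes were lower, with VhaM9.7-c at 26.2 pooled, 9.64 in replicate 1 and 9.04 in replicate 2. VhaM9.7-d stood at 15.7, 13.6 and 4.77. Neither of these passed the threshold in any list.

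Vha13 was the weakest of the 5 bound members. It encodes the G subunit, which pairs with E in the peripheral stalks, on the minus strand of chr3R:19643018-19644386. Its signal was 34.6 pooled, 21.6 in replicate 1 and 28.8 in replicate 2, with percentiles of 65.4, 64.3 and 78.2. It passed the pooled threshold with a −log10 IDR of 2.44 but neither replicate's own, where it had 1.24 and 0.616. The summit lay 30 bp upstream of the TSS, and no TSS of another gene lay within 500 bp of it.

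The DNA under the peaks is shown for Vha26, VhaM9.7-a and Vha13, which were bound, for VhaM9.7-b, which had a high signal, and for the 2 members that held a full DNA replication-related element (DRE), TATCGATA, near the summit. The DRE is the site of the transcription factor DREF, which acts at many housekeeping promoters in flies. Each run is the bases within 100 bp of the pooled summit that lie outside annotated exons, 5′ to 3′ on the gene's own strand, from NCBI's copy of Release 6 (dm6). Capitals mark CGATA or its reverse complement TATCG in Vha26, VhaM9.7-b, VhaM9.7-a and Vha13, and TATCGATA in Vha55 and VhaSFD.
Vha26, chr3R:5591514-5591714, plus strand: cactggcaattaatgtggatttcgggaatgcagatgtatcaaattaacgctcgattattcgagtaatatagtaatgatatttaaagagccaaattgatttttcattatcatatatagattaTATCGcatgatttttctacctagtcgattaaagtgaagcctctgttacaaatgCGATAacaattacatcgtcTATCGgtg
VhaM9.7-b, chr3L:21539601-21539801, plus strand: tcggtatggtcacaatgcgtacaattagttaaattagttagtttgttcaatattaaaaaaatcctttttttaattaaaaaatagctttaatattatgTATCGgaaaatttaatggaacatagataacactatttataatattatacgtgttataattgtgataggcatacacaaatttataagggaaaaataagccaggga
VhaM9.7-a, chr3L:4262556-4262704, plus strand: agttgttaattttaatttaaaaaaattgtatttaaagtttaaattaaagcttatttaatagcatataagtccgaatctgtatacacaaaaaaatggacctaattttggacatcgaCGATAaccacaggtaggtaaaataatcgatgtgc
Vha13, chr3R:19644387-19644516, minus strand: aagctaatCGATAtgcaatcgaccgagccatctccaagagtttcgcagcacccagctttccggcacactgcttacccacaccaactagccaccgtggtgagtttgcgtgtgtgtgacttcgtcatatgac
Vha55, chr3R:12627847-12628030, minus strand: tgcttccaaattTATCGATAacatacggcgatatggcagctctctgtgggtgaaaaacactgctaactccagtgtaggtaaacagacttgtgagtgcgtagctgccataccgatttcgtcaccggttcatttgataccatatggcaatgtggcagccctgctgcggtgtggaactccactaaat
VhaSFD, chr2L:16727827-16727912, minus strand: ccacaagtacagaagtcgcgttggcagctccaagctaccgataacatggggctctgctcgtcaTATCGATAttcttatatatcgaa
The summit is base 101 of the first 4 runs and base 84 of the Vha55 run, and it lies outside the VhaSFD run, in an exon. Vha26 holds 3 copies of the CGATA core and no DRE. In VhaM9.7-b the core sits almost at the summit, 1 bp away. In Vha13 the core is part of the 7-base form ATCGATA, 90 bp upstream of the summit.

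All 5 bound members had CGATA, on either strand, within 100 bp of the summit, and none had the full DRE. Over all bound protein-coding genes, 89.8% had CGATA and 34.9% had TATCGATA in that window. The 7-base form TATCGAT lies inside TATCGATA, and every match to either is also a match to CGATA. It was present at 1 of 5 bound members (Vha13), beside 61.0% of all bound genes. Among the 17 members with a ranked summit that missed the threshold, 10 had CGATA, or 58.8%, beside 33.8% of all 6073 genes of that kind, these members included. These included VhaSFD, Vha55, Vha36-1 and VhaAC39-1, the other 4 members with the 7-base form. That is 23.5% of the 17, beside 10.7% of all genes of that kind. VhaSFD and Vha55 held the full DRE, or 11.8%, beside 5.02%. Over all 22 members with a ranked summit, 2 held the full DRE (9.09%, beside 13.5% of all genes with a ranked summit). The 7-base form was at 5 (22.7%, beside 25%) and CGATA at 15 (68.2%, beside 49.7%). With so few members in each part, the counts do not show a difference in these motifs between bound and unbound members. A match describes the letters in the window, and the absence of a match says only that these letters are not there.

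Other core promoter words were scarce around the summits. The M1BP motif 1 core GTCACACT was present at Vha100-1 alone (4.55% of 22, beside 4.88% of all 8491 genes with a ranked summit). Motif 7, searched as CAGCNCTA, CAGCNCTG, CATCNCTA and CATCNCTG, was present at Vha68-1, Vha16-1 and Vha55 (13.6%, beside 19.3%). The E-box CACGTG, the site type of Mitf, the fly member of the family that controls lysosome genes, was present near the summit at VhaM9.7-d alone (4.55%, beside 3.06%). In the window from 250 bp before to 50 bp after the TSS, 5 of the 33 members held CACGTG, or 15.2%, beside 5.34% of all genes. These were Vha68-2, Vha44, Vha55, VhaM9.7-d and VhaAC45RP, and none of them was bound by CG2129-eGFP, beside 17.3% of all genes. With only 5 such members, none bound cannot be told apart from that share. Near the summit, 2.89% of all bound genes held CACGTG, beside the 3.06% of all genes with a ranked summit. All motifs were searched on both strands.

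**Figure D2:**
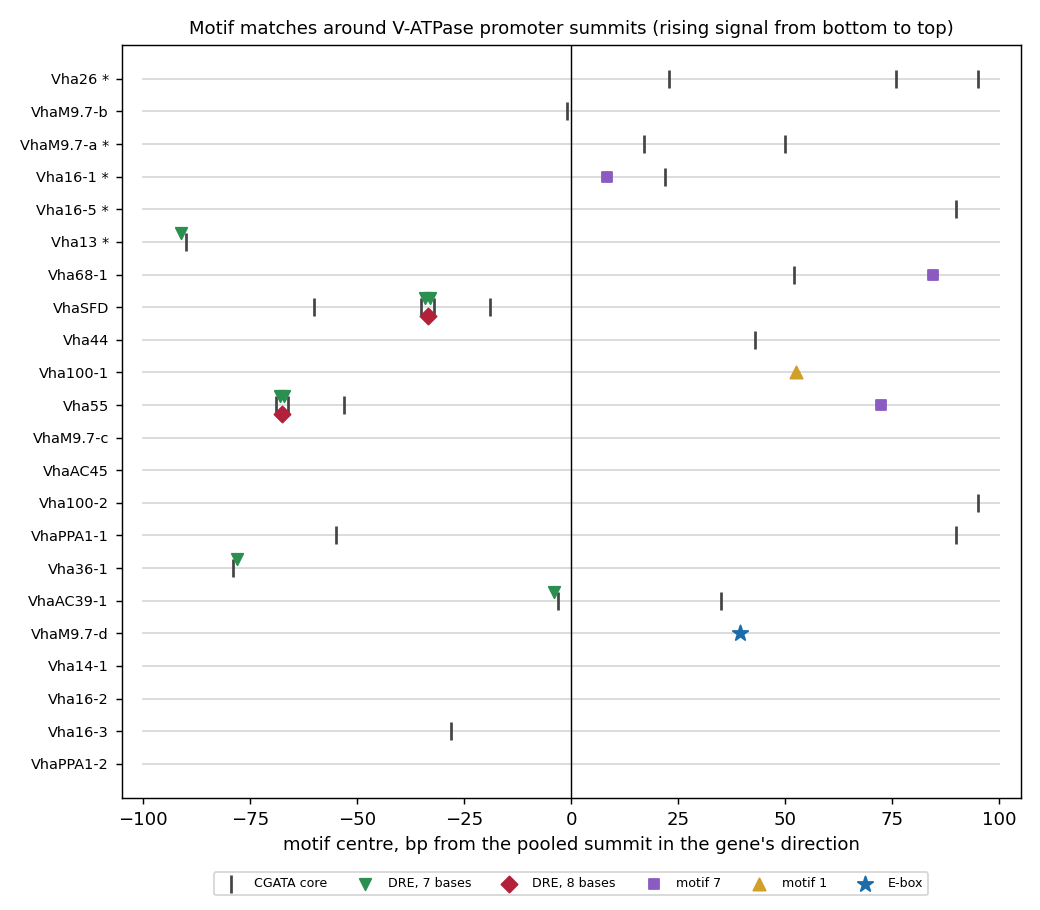
Position of motif matches relative to the pooled summit (0, in bp along the gene's direction) for the 22 members with a ranked promoter summit, ordered by pooled signal from the lowest at the bottom to the highest at the top. Stars beside the names mark the 5 bound members, each of which has a CGATA tick, while the 8-base DRE appears at VhaSFD and Vha55, which were not bound.

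Of the V1 sector, 8 of 13 members had a pooled ranked summit and 2 were bound, near the 60.9% and 17.3% of all genes. The catalytic A subunit is encoded by Vha68-1, Vha68-2 and Vha68-3. Vha68-1 reached a signal of 32.5 in the pooled list, 14.7 in replicate 1 and 24.6 in replicate 2, with a −log10 IDR of 1.16, and its summit lay 256 bp from the TSS of mTor, the growth kinase gene on the opposite strand. Vha68-2, which has 5 annotated TSSs, was the 1 broadly used member without a pooled summit. Its nearest pooled summit was 2384 bp away, and replicate 1 alone listed a weak one at 11.1. Vha68-3 had none in any list.

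The B subunit, which alternates with A in the V1 ring, is encoded by Vha55. Its signal was 26.3 pooled, 18.9 in replicate 1 and 13.0 in replicate 2. The sorting nexin gene Snx3 had a TSS nearer to the pooled summit (84 bp against 118 bp). The Vha55 summit lay 157 bp upstream of the TSS in replicate 1 and 42 bp downstream in replicate 2. VhaSFD encodes the regulatory H subunit and had 31.0, 14.8 and 18.7 in the same order. Vha44 encodes the C subunit, which joins the stalks during assembly, and had 27.4, 15.9 and 15.0, with the TSS of the HMG-CoA synthase gene Hmgs nearer to the summit (117 bp against 240 bp). In replicate 2 the Vha44 summit lay 58 bp downstream of the TSS, 298 bp from the pooled one and outside the pooled peak, so that value belongs to another position. All 3 genes had a promoter summit in both replicates without passing the threshold in any list.

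The central stalk is made of D and F. Vha36-1, the broadly used D gene, had a signal of 20.4 pooled, 12.1 in replicate 1 and 6.94 in replicate 2. Vha14-1, the broadly used F gene, had 13.99, 6.59 and 9.41, which was the lowest pooled signal of a broadly used member with a summit, at a percentile of 22.8. Its replicate 2 summit lay 522 bp from the pooled one, on the other side of the TSS. Their tissue-restricted paralogues Vha36-2, Vha36-3 and Vha14-2 had no summit in any list.

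Of the V0 sector, 13 of 18 members had a pooled ranked summit and 3 were bound, beside the same 60.9% and 17.3% of all genes. The c subunit forms the proton-carrying rotor ring and has 5 genes here. The broadly used Vha16-1, on the minus strand of chr2R:6625242-6633090, had a signal of 60.04 in the pooled list, 22.1 in replicate 1 and 34.3 in replicate 2, with percentiles of 77.3, 65.1 and 82.1. It passed the threshold in the pooled list and in replicate 2. Its summit lay 81 bp upstream of its TSS with no other TSS within 500 bp.

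Vha16-5, on the minus strand of chr2L:10736319-10737043, was the 1 tissue-restricted member that was bound. Its signal was 55.5 pooled, 44.3 in replicate 1 and 13.0 in replicate 2, with percentiles of 75.7, 81.2 and 51.6. It ranked well above the median gene in replicate 1 and near it in replicate 2. The summit lay 380 bp upstream of Vha16-5 and only 78 bp from the TSS of CG12299 on the opposite strand, so the peak was nearer to that gene. Its −log10 IDR was 2.77 in the pooled list and 0.687 in the second pooled list, and the authors' conservative list left it out.

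The other 3 c genes had low pooled signals or none. Vha16-2 had a signal of 12.2 pooled (percentile 16.4), none in replicate 1 and 10.6 in replicate 2 (percentile 40.2). Vha16-3 had 8.01 pooled (percentile 3.54), none in replicate 1 and 8.61 in replicate 2 (percentile 27.7). Both summits lay inside the gene, 439 bp and 350 bp downstream of the TSS, and that of Vha16-2 was nearer to the TSS of the antisense RNA gene asRNA:CR46049, at 63 bp. Vha16-4 was listed in replicate 2 alone, at 6.67. Between Vha16-1 and Vha16-5 the pooled signals were close, and the replicates put them in opposite orders.

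The a subunit holds the half-channels through which protons enter and leave the membrane. Its broadly used genes Vha100-1 and Vha100-2 had pooled signals of 26.7 and 21.1, at percentiles of 57.4 and 46.1, and Vha100-1, which shares its promoter region with the augmin subunit gene dgt6, had no peak in replicate 2. Its tissue-restricted genes Vha100-3 and Vha100-4 had a summit in replicate 1 alone, at 7.89 and 12.6, and Vha100-5 had none. VhaPPA1-1, for the c-type ring subunit written c with a double prime, had 20.9 pooled, none in replicate 1 and 18.9 in replicate 2. The tissue-restricted VhaPPA1-2 had 7.43 pooled, 11.8 in replicate 1 and none in replicate 2. VhaAC39-1, for the d subunit that joins the ring to the central stalk, had 16.3, 8.91 and 9.63, and VhaAC39-2 had no summit.

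VhaAC45 encodes an accessory glycoprotein of the V0 sector and had a signal of 26.02 in the pooled list, 10.3 in replicate 1 and 14.4 in replicate 2. Its relative VhaAC45RP had no summit in any list. ATP6AP2, the gene of the other accessory protein, does not carry the Vha prefix and was not counted as a member. It was bound, with 80.1 pooled, 44.5 in replicate 1 and 39.4 in replicate 2 at a summit 25 bp upstream of its TSS, close to the values of Vha26.

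Set by subunit, 9 subunits have both a broadly used and a tissue-restricted gene. In the pooled list the highest signal of a broadly used gene was above that of the tissue-restricted genes for 9 of 9, and in replicate 2 likewise for 9 of 9, counting a gene without a summit as lower. In replicate 1 it was above for 7 of 9. The exceptions were c, where Vha16-5 stood above Vha16-1, and c with a double prime, where only VhaPPA1-2 had a peak. In the pooled list tissue-restricted genes had a summit only for c, c with a double prime and e, and in replicate 2 only for c and e. For the other subunits the order in those lists only repeats which genes had a summit. For a, the replicate 1 order rested on the placing of Vha100-1 (17.3) as broadly used. Vha100-2, at 8.35, stood below the tissue-restricted Vha100-4, at 12.6. The number of paralogues differs between the classes, and a subunit with more genes has more chances of a high one.

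Among members with a pooled ranked summit, the median signal was 27.0 for the 16 broadly used genes (13.99 to 79.6) and 13.97 for the 6 tissue-restricted genes (7.43 to 55.5). The groups overlapped. Their median percentiles were 57.8 and 22.8, and 11 of 16 and 2 of 6 stood above the median gene of the list. Members enter these medians only if they had a summit, which 10 of the tissue-restricted genes lacked. The summit lay within 200 bp of a TSS for 15 of these 16 broadly used genes and 2 of these 6 tissue-restricted genes, beside 65.4% of all genes with a ranked summit. The median distance was 96 bp and 363.5 bp, beside 131 bp over all genes.

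**Figure D3:**
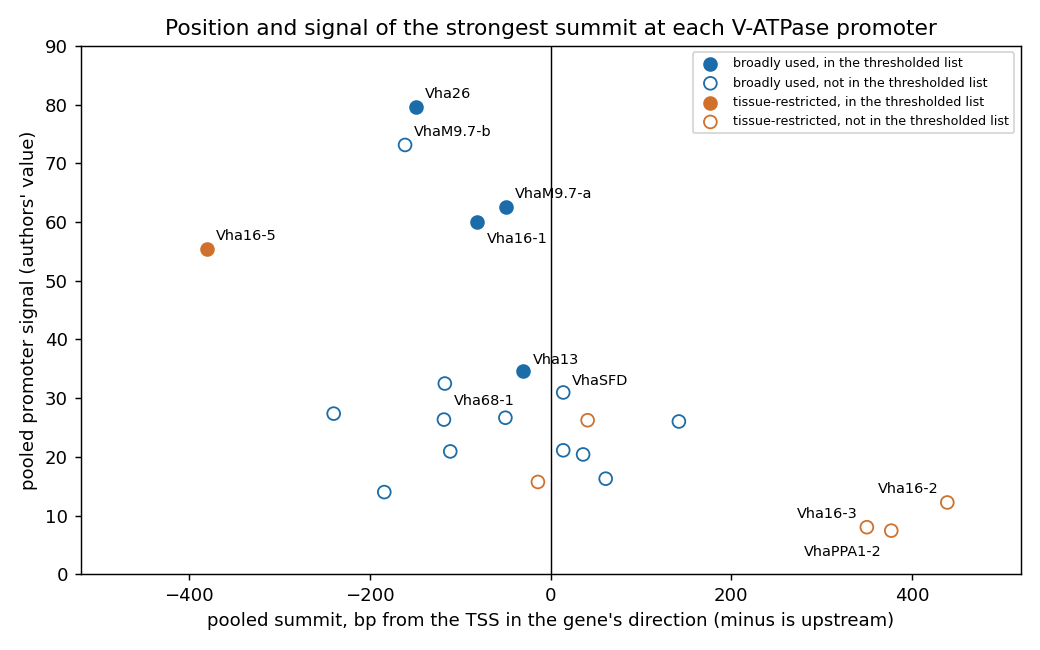
Pooled promoter signal (the authors' value, vertical axis) against the distance of the summit from the TSS in bp (horizontal axis, minus is upstream) for the 22 members with a pooled ranked summit, filled where the peak passed the authors' threshold. Broadly used genes (blue) lie mostly within 200 bp of the TSS, while Vha16-5, Vha16-2, Vha16-3 and VhaPPA1-2 (orange) lie 350 bp or more away.

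Many members share a promoter region with a gene on the opposite strand. Such a protein-coding TSS on the opposite strand lay within 500 bp upstream of 11 of 17 broadly used and 2 of 16 tissue-restricted members, beside 27.4% of all genes. Over all genes, 37.1% of such head to head genes were bound and 9.88% of the others. A summit within 500 bp of both TSSs of a pair counts for both genes. How much of that difference comes from this double counting was not tested. Of the broadly used members, 2 of 11 with such a neighbour were bound (18.2%) and 2 of 6 without (33.3%). With so few bound, these counts cannot set a direction against that of all genes. Of the tissue-restricted, 1 of 2 with a neighbour and 0 of 14 without were bound. For ranked summits, without such a neighbour, 5 of 6 broadly used members (83.3%) and 5 of 14 tissue-restricted members (35.7%) had a ranked summit, beside 52.0% of all genes. With a neighbour, 11 of 11 and 1 of 2 had a ranked summit, beside 84.4% of all genes. Its part in the difference between the classes was not tested.

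Each replicate alone gave 3 bound members. Replicate 1 had Vha26, VhaM9.7-a and Vha16-5, or 9.09% of the members beside 14.9% of all genes. Replicate 2 had Vha26, VhaM9.7-b and Vha16-1, again 9.09%, beside 12.2% of all genes. In the ranked lists, 22 members had a promoter summit in replicate 1 and 21 in replicate 2 (66.7% and 63.6%, beside 58.1% and 58.1% of all genes). The authors' conservative pooled list held 5 members, all broadly used (15.2%, beside 16.8% of all genes), with VhaM9.7-b in place of Vha16-5. Peak by peak, 1 of the 5 pooled peaks overlapped a thresholded peak of both replicates by at least 50% of either peak, and that was the peak at Vha26. The peaks at VhaM9.7-a and Vha16-5 were matched in replicate 1, that at Vha16-1 in replicate 2, and that at Vha13 in neither.

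Over the 17 members with a promoter summit in both replicates, the signals had a Spearman rank correlation of 0.664, beside 0.791 over the 6120 protein-coding genes with a summit in both. The points of each come from the same 2 libraries, and the value is a description without a p. The strongest summit was taken in each replicate by itself, so paired values can belong to different positions. Vha14-1, Vha44, Vha68-1, Vha55 and VhaM9.7-b are among such cases. Of these members, 12 had a higher percentile in replicate 2 and 5 in replicate 1, beside 3087 and 3033 of all genes. The summit lay a median of 39 bp from the pooled position in replicate 1 (19 members, 0 to 197 bp) and 52.5 bp in replicate 2 (20 members, 0 to 522 bp).

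**Figure D4:**
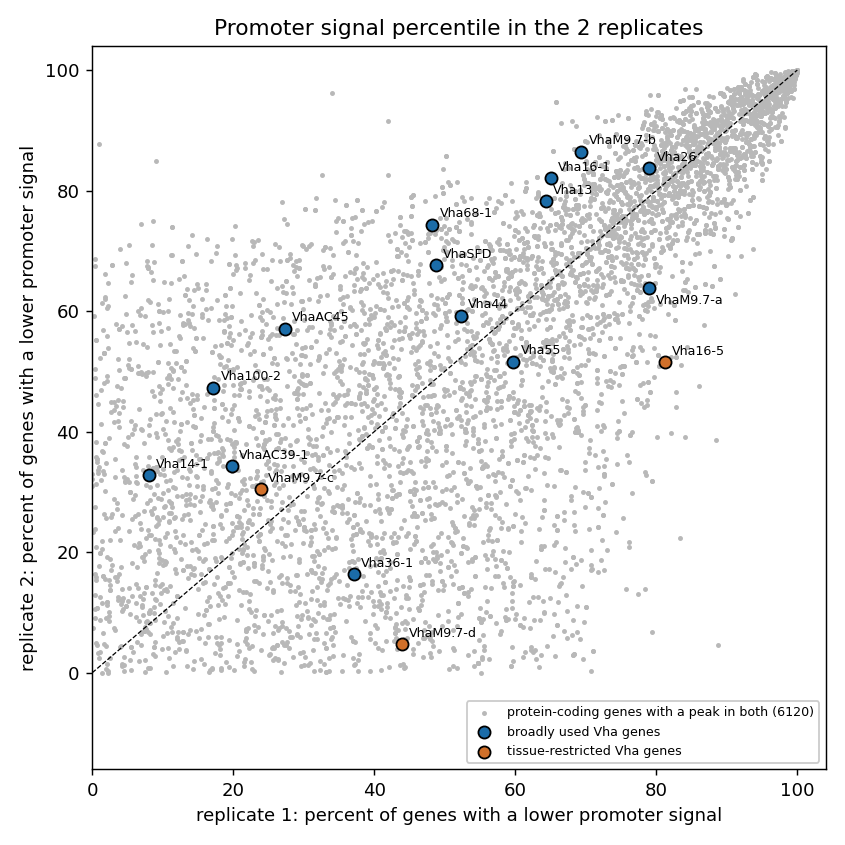
Percentile of promoter signal (percent of protein-coding genes with a lower signal) in replicate 1 (horizontal) and replicate 2 (vertical) for the 17 members with a summit in both, over the 6120 protein-coding genes with a summit in both (grey). Vha26 lies near the dashed line of equal percentile, VhaM9.7-a and Vha16-5 lie on the side of replicate 1, and VhaM9.7-b, Vha16-1 and Vha68-1 on that of replicate 2.

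Other genes of acidification and the lysosome were taken from a list of 36 names, of which 30 matched a protein-coding gene. The pooled list held 11 of the 30, or 36.7%, and the ranked list 26, or 86.7%, beside 17.3% and 60.9% of all genes. The highest signal was that of spin, which encodes a lysosomal efflux transporter, at 259 pooled, 160.4 in replicate 1 and 89.1 in replicate 2. Rbcn-3A, whose product helps the V1 and V0 sectors assemble, stood at 137 pooled, 81.5 in replicate 1 and 59.0 in replicate 2, above every subunit gene, and its partner Rbcn-3B at 48.9, 25.2 and 26.7. The lysosomal protease gene CtsF had 194 pooled, and dor, a subunit gene of the tethering complex that fuses vesicles with lysosomes, 81.1. The others bound were CtsB, Sap-r, Npc2a, Npc1a, cathD and RagA-B, at 35.6 to 108, and at CtsB, Npc2a and Npc1a another gene had the nearer TSS. Mitf itself was not bound and had a pooled signal of 10.9, at a percentile of 11.8. Replicate 1 held 8 of the 30, beside 14.9% of all genes, and replicate 2 held 5, beside 12.2%. Both shares stood nearer to that of all genes than the pooled share did, and that of replicate 2 was the nearest.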

How the data were processed

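ChIP-seq of CG2129-eGFP was deposited as peak lists on dm6, per the labels, and no reads were used. The summit signal is the value that the authors deposited for each peak, and the −log10 IDR of the ranked lists is also the authors'. The summit offset, another deposited column, was added to the peak start. The sources used here name neither the aligner nor the peak caller, and read depth is unknown from these files, so no counting interval is given. Each list was ranked within itself. The ranked lists hold 8 columns of per-replicate values that nothing ties to a sample, and these were not used.

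Peaks were assigned to 24111 TSSs of 18277 genes of Ensembl release 115 (BDGP6.54, the coordinates of dm6), with transposable elements left out. Where several summits lay within 500 bp, the strongest was taken. Sequence came from NCBI's Release 6. Matching was checked on simulated peaks. Python 3.11.15, pandas 2.3.3, NumPy 2.4.6 and SciPy 1.17.1 were used. Full values were to be given for each bound member and its unbound paralogues, and the other members were added after their values were seen. No test was run across members. The members, the split by use, the lysosome list and the motifs were chosen with earlier results of these data known. Alternatives were other windows, lists and assignments of a peak to a gene. The labels call the 2 samples biological replicates.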

Additional observations from a re-analysis of the deposited data

How the results depend on the processing

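The count of 5 bound members was also 5 at 1000 bp, with the outermost TSS of each gene and in the conservative list, beside 18.9%, 16.6% and 16.8% of all genes. It was 4 at 200 bp and with each peak given to the gene of the nearest TSS, beside 15.0% and 12.6%. It was 1, with 1 broadly used and 0 tissue-restricted members, for peaks at or above the median signal, beside 10.6% of all genes. The thresholded lists of both replicates together, an alternative chosen after seeing the data, also gave 1, 1 and 0. The tissue-restricted count of 1, which is Vha16-5, was 0 at 200 bp, 0 in the conservative list and 0 with the nearest TSS. From 1 replicate at a time, the counts were 3 to 3 for all members, 2 to 3 for the broadly used and 0 to 1 for the tissue-restricted, and the lysosome genes numbered 5 to 8 of 30 in place of 11. With 250 bp in place of 100 bp around the summit, CACGTG was found at 4 members in place of 1 (18.2%, beside 7.51% of all genes with a ranked summit), the motif 1 core at 2 in place of 1 (9.09%, beside 9.27%), and motif 7 at 7 in place of 3 (31.8%, beside 32.0%). Of the 5 bound members, 1 (Vha16-1) held CACGTG within 250 bp, or 20%, beside 7.32% of all bound genes. The 7-base form TATCGAT was within 250 bp at 2 of them (VhaM9.7-a and Vha13), or 40%, beside 71.4%. The overlap of 1 pooled peak with both replicates was the same at 1 bp. The number of replicates, 2, and the unknown depth limit what the lists can show, and a member without a summit was not detected in these lists, which does not show that CG2129 was absent there. No paired analysis was possible because the design has 1 group.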
